A study of Mus musculus with 12 samples.

Results

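AP-1 is a family of dimeric transcription factors, and 8 of its genes were followed here: Fos, Fosb, Fosl1, Fosl2, Jun, Junb, Jund and Atf3. They were chosen by symbol, as every probe set whose platform annotation names 1 of them and no other gene. This gave 12 probe sets among the 45101 of the array and 8 of the 18193 genes with a symbol of their own, each gene being read from its probe set with the highest mean over all arrays. RNA came from dermal fibroblasts of mouse back skin, 1 Affymetrix array per sample, in 3 groups of 4 arrays. Pap fibroblasts came from tumour-associated (papilloma) skin of InvEE mice, InvEE fibroblasts from inflamed skin of InvEE mice, and WT fibroblasts from normal skin of wild-type mice. All donors of all groups were males, 7 weeks old, with the reporter allele PDGFRα-H2B-eGFP, which marks cells expressing PDGF receptor alpha, most dermal fibroblasts among them, with a fluorescent histone. As background, the InvEE transgene encodes activated MEK1, and its involucrin promoter drives it in differentiating keratinocytes of the epidermis, not in dermal fibroblasts. The labels do not say whether arrays of a group came from separate animals or from pools, so p-values reflect only how far these samples spread, and that spread may be technical.

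Members of AP-1 share a basic region that touches DNA and a leucine zipper that joins a pair of proteins. Jun proteins can pair with each other or with Fos proteins, whereas Fos proteins bind DNA only with a partner, and Atf3 forms dimers with itself or with Jun proteins. Fos, Fosb, Jun, Junb and Atf3 are immediate early genes: growth factors, stress and MAP kinase signalling switch them on from existing proteins, and their RNAs are short-lived. Enzymatic dissociation of a tissue is a known inducer of the same genes, and it was part of every preparation here. The skin lay overnight in trypsin at 4 °C and the dermis was digested with collagenases and hyaluronidase for 45 minutes at 37 °C before cells were sorted by fluorescence. The measured levels therefore hold any induction by this procedure as well as the state of the cells in the skin.

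The promoters of the members that differed most are shown first, because 4 of them (Fos, Fosb, Jun and Atf3) fell together in Pap fibroblasts and 1 (Fosl2) moved the other way. RefSeq promoters in build GRCm38.p6 matched 7 of the 8 members by symbol; Fosl1 is not in that table. Each line gives the 250 bases before the transcription start listed there, 5′ to 3′ on the gene's strand, and capitals mark matches to the motifs named below. Fos lies at chr12:85473640-85473889 (plus strand), Fosb at chr7:19310046-19310295 (minus strand), Jun at chr4:95052223-95052472 (minus strand), Atf3 at chr1:191183334-191183583 (minus strand) and Fosl2 at chr5:32136222-32136471 (plus strand). The annotated extent of Fosb reaches base 19310118, so the end of its window lies within the longest annotated form of that gene.
Fos: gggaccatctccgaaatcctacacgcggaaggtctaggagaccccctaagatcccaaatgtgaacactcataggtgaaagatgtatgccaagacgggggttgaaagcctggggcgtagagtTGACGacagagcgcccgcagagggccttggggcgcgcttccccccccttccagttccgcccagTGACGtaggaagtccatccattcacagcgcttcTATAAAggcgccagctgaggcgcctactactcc
Fosb: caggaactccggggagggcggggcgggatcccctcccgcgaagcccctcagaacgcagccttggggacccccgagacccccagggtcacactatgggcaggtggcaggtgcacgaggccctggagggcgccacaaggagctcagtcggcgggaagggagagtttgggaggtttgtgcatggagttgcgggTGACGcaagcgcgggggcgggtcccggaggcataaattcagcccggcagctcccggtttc
Jun: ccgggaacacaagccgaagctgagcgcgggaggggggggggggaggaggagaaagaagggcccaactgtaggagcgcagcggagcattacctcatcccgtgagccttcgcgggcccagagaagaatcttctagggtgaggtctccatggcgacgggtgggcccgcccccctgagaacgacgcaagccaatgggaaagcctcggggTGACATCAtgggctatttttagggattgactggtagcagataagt
Atf3: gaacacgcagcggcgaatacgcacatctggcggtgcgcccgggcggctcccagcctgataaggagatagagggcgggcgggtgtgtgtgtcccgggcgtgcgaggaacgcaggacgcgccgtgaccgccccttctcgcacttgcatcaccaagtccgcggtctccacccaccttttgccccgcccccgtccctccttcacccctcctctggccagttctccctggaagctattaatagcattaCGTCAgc
Fosl2: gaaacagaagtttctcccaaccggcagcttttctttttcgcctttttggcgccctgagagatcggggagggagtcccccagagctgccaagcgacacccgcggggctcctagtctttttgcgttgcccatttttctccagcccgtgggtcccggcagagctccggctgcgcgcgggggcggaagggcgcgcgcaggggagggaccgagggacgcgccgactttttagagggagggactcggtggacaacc

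The motifs searched on both strands were the AP-1 site TGANTCA, the cAMP response element TGACGTCA, its core TGACG, which the full element contains, the Jun-type site TGACATCA, the TATA box TATAAA and the CArG box bound by serum response factor. The Fos window held 2 matches to TGACG, at 129 to 125 and at 66 to 62 bases before the start. It also held a TATA box at 33 to 28 bases before the start, and no CArG box. Bases further upstream than the windows were not searched, so a CArG box of Fos lying there would be missed. Fosb had 1 match to TGACG at 60 to 56 bases, and Atf3 had 1 on the opposite strand at 7 to 3 bases before the start. The window of Jun held 1 Jun-type site, at 45 to 38 bases, and none of the other motifs. No motif of the 6 matched in the window of Fosl2. Junb, whose window is not printed, had 1 match to TGACG at 106 to 102 bases before its start, and Jund had none of the 6. Among 32851 windows of the same length, 17.8% held TGACG, 12.4% TATAAA, 6.75% TGANTCA, 2.93% TGACATCA, 1.55% TGACGTCA and 1.47% a CArG box. A match describes the letters only.

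Levels below are log2 values after quantile normalization between arrays, and differences are log2 differences between group means with their standard error (SE) from limma, called where the Benjamini-Hochberg adjusted p over all 18193 genes was under 0.05. Since a level belongs to its probe set, levels of different genes are not set against each other. All 8 measured fibroblast markers, Pdgfra and Col1a1 among them, were above the dim limit, which is the lowest 40% of probe sets by mean. In InvEE array 3 all 8 members had the lowest level of their group, and in WT array 4 this was so for 5 of 8, so values without them are given for those members whose calls or sizes they touch. Without WT array 4, all 6 calls of Pap against WT and all 4 of Pap against InvEE stayed. In such a bulk measurement, fewer cells that express a gene and less RNA per cell cannot be told apart.

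Fos, the founding partner of Jun, fell in Pap fibroblasts against both other groups. Its levels were 11.39, 11.55, 11.49 and 11.89 in Pap arrays 1 to 4, 13.22, 13.15, 13.00 and 13.36 in InvEE arrays and 13.17, 12.83, 13.14 and 12.63 in WT arrays. Every Pap array lay below every array of the other groups, while InvEE and WT arrays overlapped. The difference was -1.36 ± 0.17 (SE, n = 4 arrays per group) between Pap and WT, 2.57-fold lower, with an adjusted p of 0.000348. Between Pap and InvEE it was -1.60 ± 0.17, 3.04-fold lower, with an adjusted p of 0.000209. Without InvEE array 3 the value against InvEE was -1.66, and without WT array 4 the value against WT was -1.47, both still called. The call held under all 26 alternative settings tried, in both Pap comparisons.

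Fosb, a Fos relative with similar early kinetics, fell likewise. Its levels were 10.27, 9.39, 9.70 and 9.55 in Pap arrays, 11.69, 11.50, 10.58 and 11.99 in InvEE arrays and 11.65, 10.82, 11.46 and 11.08 in WT arrays. The highest Pap array lay below the lowest array of either other group. Fosb was 2.88-fold lower in Pap than in WT fibroblasts (-1.53 ± 0.30, adjusted p = 0.00796) and 3.28-fold lower than in InvEE fibroblasts (-1.71 ± 0.30, adjusted p = 0.00614). Leaving out InvEE array 3 gave -2.00 against InvEE, still called.

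Jun, the main partner of the Fos proteins, fell in Pap fibroblasts as well. Pap arrays stood at 12.06, 12.01, 12.12 and 12.11, InvEE arrays at 13.18, 13.06, 12.52 and 13.15 and WT arrays at 13.19, 13.06, 13.08 and 13.01. Pap arrays lay within 0.12 of each other and below all others, and InvEE array 3 was the lowest outside the Pap group (without it, Pap differed from InvEE by -1.05, still called). Jun fell by 1.01 ± 0.16 in Pap against WT, a 2.01-fold difference (adjusted p = 0.00168), and by 0.90 ± 0.16 against InvEE, a 1.87-fold difference (adjusted p = 0.00529). Its second probe set gave -0.52 ± 0.21 against WT, which did not pass over all probe sets (adjusted p = 0.168), and -0.91 ± 0.21 against InvEE (adjusted p = 0.028). A shift of each array by its ribosomal protein genes ended the call of Jun against InvEE (-0.44, adjusted p = 0.0873).

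Junb, a Jun paralogue that often counters Jun, fell in Pap against WT fibroblasts and missed the threshold against InvEE. Levels were 7.56, 7.47, 7.75 and 8.04 in Pap arrays, 9.0, 9.19, 7.68 and 8.81 in InvEE arrays and 8.91, 8.72, 8.97 and 8.61 in WT arrays. Pap and WT arrays did not overlap, and InvEE array 3 lay inside the Pap range. The difference was -1.10 ± 0.28 from WT (2.14-fold lower, adjusted p = 0.0291) and -0.97 ± 0.28 from InvEE (adjusted p = 0.0626). The call against WT was lost without any 1 of Pap arrays 1, 2 and 3 and WT arrays 1, 2 and 3 (-1.05, -1.02, -1.11, -1.06, -1.13 and -1.04), and also under the ribosomal shift (-0.83, adjusted p = 0.0687). Without InvEE array 3 the value against InvEE was -1.30 and called (adjusted p = 0.00201).

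Jund, the Jun paralogue that most cells express constantly, had no called difference. Its levels were 12.94, 12.40, 12.66 and 13.01 in Pap arrays, 13.00, 12.80, 12.68 and 12.93 in InvEE arrays and 13.27, 13.20, 13.04 and 13.23 in WT arrays. All arrays of both transgenic groups lay below all WT arrays, though by little. The differences were -0.43 ± 0.16 between Pap and WT (adjusted p = 0.116), -0.34 ± 0.16 between InvEE and WT (adjusted p = 0.328) and -0.10 ± 0.16 between Pap and InvEE, with a 95% interval of -0.44 to 0.25. The second probe set of Jund gave -0.33, -0.31 and -0.02 for the same comparisons, none of them called.

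Atf3, a stress-induced member that binds with Jun proteins or alone and can repress its targets, fell in Pap fibroblasts against both other groups. Pap arrays stood at 7.80, 6.35, 7.45 and 6.12, InvEE arrays at 10.20, 10.35, 8.80 and 11.32 and WT arrays at 9.16, 8.87, 10.35 and 8.13. All Pap arrays were below all others, but the arrays of each group were spread over 1.68 to 2.52. Atf3 was 9.43-fold lower in Pap than in InvEE fibroblasts (-3.24 ± 0.58, adjusted p = 0.00635) and 4.59-fold lower than in WT fibroblasts (-2.20 ± 0.58, adjusted p = 0.0325). Without InvEE array 3 the first value was -3.69, and without WT array 4 the second was -2.53, both called. The call against WT was lost without any 1 of Pap arrays 2 and 4 and WT arrays 1, 2 and 3 (-2.01, -1.93, -2.19, -2.28 and -1.79). Pap array 4 lay below the dim limit of 6.16, so the size of the differences depends on how background was treated.

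Fosl2, also called Fra-2, which lacks the strong activation domain of Fos, rose in Pap fibroblasts against WT on the probe set used. Its levels were 11.53, 11.68, 11.13 and 11.57 in Pap arrays, 11.55, 11.55, 10.52 and 11.09 in InvEE arrays and 9.59, 10.09, 10.84 and 9.28 in WT arrays. Pap arrays were all above WT arrays, and InvEE arrays overlapped with both. The difference from WT was 1.53 ± 0.33 in Pap (2.88-fold higher, adjusted p = 0.0114) and 1.23 ± 0.33 in InvEE fibroblasts (adjusted p = 0.115), and Pap differed from InvEE by 0.30 ± 0.33. Without WT array 3, the highest of its group, the InvEE difference was 1.53 and called (adjusted p = 0.0423). Without WT array 4, the lowest, the Pap difference was 1.30, still called.

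The second probe set of Fosl2 did not show this. It stood at 8.63, 8.72, 8.97 and 10.16 in Pap arrays, 9.10, 8.53, 7.58 and 8.83 in InvEE arrays and 9.50, 8.98, 8.53 and 8.92 in WT arrays, with all groups overlapping. Its differences were 0.14 ± 0.39 between Pap and WT (adjusted p = 0.89) and -0.47 ± 0.39 between InvEE and WT (adjusted p = 0.581). With the mean of both probe sets Pap differed from WT by 0.83, which was not called (adjusted p = 0.0689), so the rise of Fosl2 rests on 1 of its 2 probe sets.

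Fosl1, or Fra-1, the Fos relative best known from invasive tumour cells, had no called difference. Levels were 7.16, 7.03, 6.48 and 7.13 in Pap arrays, 8.79, 8.23, 6.57 and 7.29 in InvEE arrays and 6.85, 6.89, 7.76 and 7.18 in WT arrays. All groups overlapped, and InvEE arrays 1 and 2 were the highest of the series. Pap differed from WT by -0.22 ± 0.41 (95% interval -1.11 to 0.67, adjusted p = 0.814) and from InvEE by -0.77 ± 0.41 (adjusted p = 0.243), and InvEE from WT by 0.55 ± 0.41 (adjusted p = 0.518). Without InvEE array 3, InvEE differed from WT by 0.94 and Pap from InvEE by -1.16, neither called. On its second probe set, which was dim in WT arrays, Pap differed from WT by 0.53 ± 0.70 and InvEE from WT by 1.38 ± 0.70 (adjusted p = 0.733 and 0.381).

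**Figure D1:**
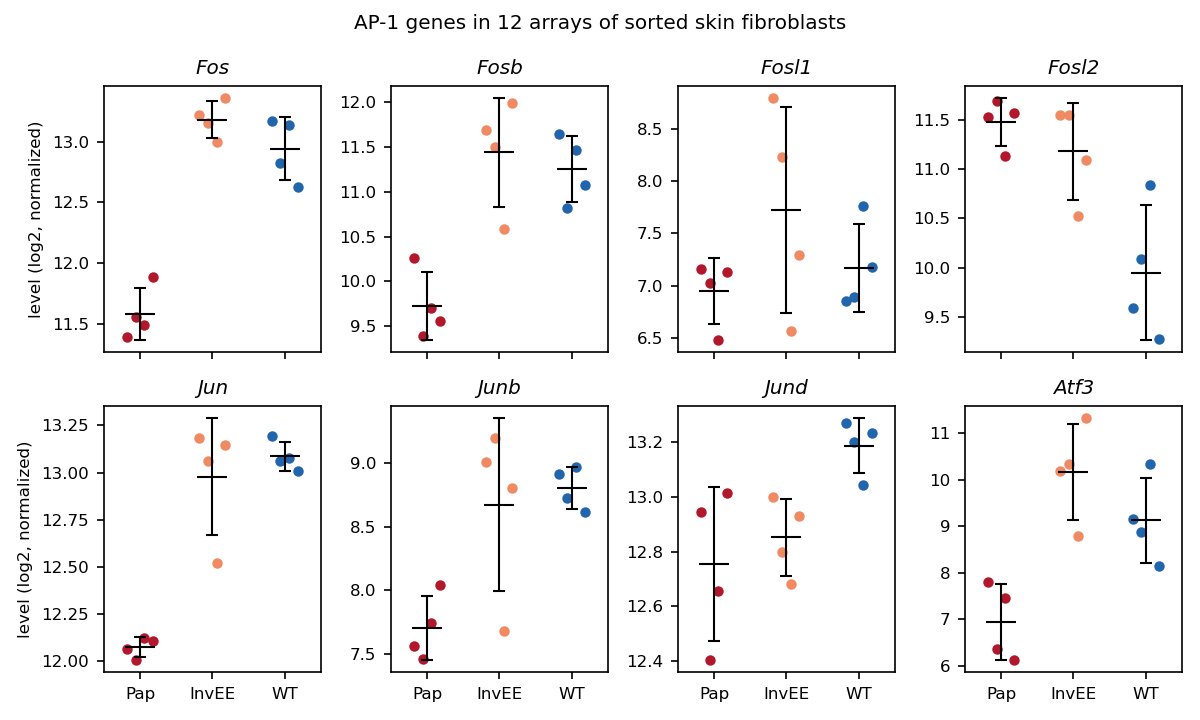
Normalized log2 level (vertical axes) of the 8 AP-1 genes in each Pap, InvEE and WT array (points, 4 per group); bars show the group mean ± SD, and each panel has its own vertical range. Pap arrays lie below all others for Fos, Fosb, Jun and Atf3 and above all WT arrays for Fosl2.

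Of the 8 members, 5 fell (Fos, Fosb, Jun, Junb and Atf3) and 1 rose (Fosl2) in Pap against WT fibroblasts. Over all genes, 9.65% were called in this comparison, 4.8% lower and 4.85% higher. The median difference of the members was -1.05, against 0.04 over all genes, and 7 of 8 members did not overlap between the groups, where 13.8% of all genes did not. In Pap against InvEE fibroblasts 4 members fell (Fos, Fosb, Jun and Atf3) and 0 rose, where limma called 6.71% of all genes, 3.04% lower. The median of the members was -0.93, against 0.12 over all genes, and 4 of 8 did not overlap, against 21.1% of all genes. Both comparisons use the same Pap arrays, so they are not independent of each other.

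In InvEE against WT fibroblasts limma called 0 of 8 members, and 1 of them, Fosl2, had an unadjusted p under 0.05 (0.00265). Over all genes 0.533% were called. The members' median was 0.21 and that of all genes -0.09; 1 member, Jund, did not overlap between the groups, where 15.3% of all genes did not. The 95% intervals ran from -0.13 to 0.61 for Fos, from -0.48 to 0.85 for Fosb, from -0.45 to 0.23 for Jun and from -0.75 to 0.48 for Junb. For these 4 genes a change of the size seen between Pap and InvEE, in the same direction, lies outside the interval. Atf3 differed by 1.04 ± 0.58, with an interval of -0.22 to 2.30.

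**Figure D2:**
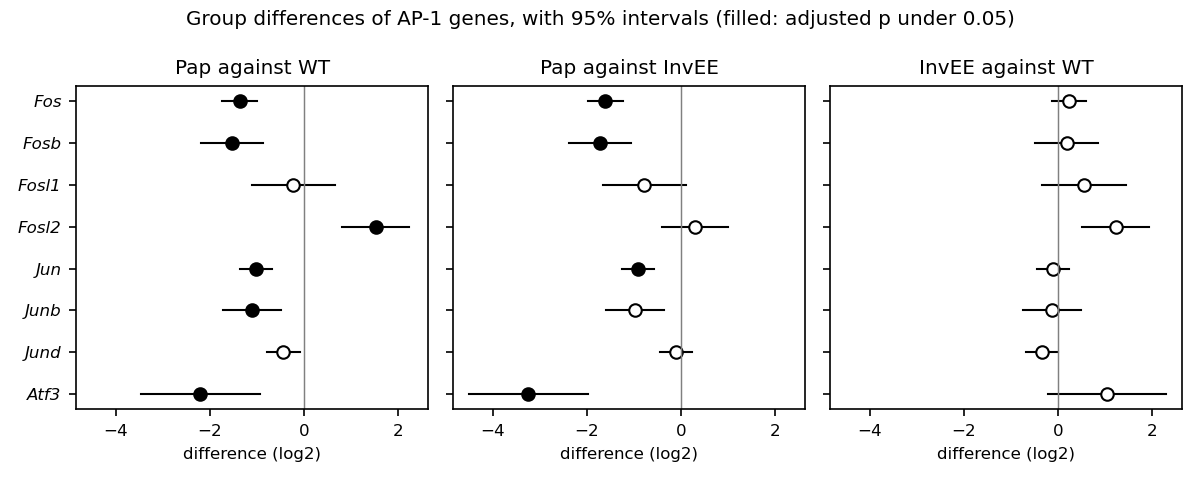
Log2 difference (horizontal axis) of each AP-1 gene in Pap against WT, Pap against InvEE and InvEE against WT fibroblasts, with its 95% interval (lines) from limma; filled points have an adjusted p under 0.05. Filled points lie left of 0 in both Pap panels except Fosl2 against WT, and the InvEE against WT panel has none.

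Other early genes that dissociation is known to induce were read out beside the members. Of 31 such genes outside AP-1, 6 fell and 1 rose in Pap against WT fibroblasts, 22.6% of the list against 9.65% of all genes, with a median of -0.23. In Pap against InvEE, 9 fell and 1 rose, 32.3% against 6.71% of all genes, with a median of -0.68, and in InvEE against WT 0 passed by limma, with 10 at an unadjusted p under 0.05 (median 0.40). Krüppel-like zinc finger factors were among those that fell: Klf2, a factor of quiescent cells, fell by 1.79 ± 0.18 against WT and by 1.51 ± 0.18 against InvEE (adjusted p = 8.89e-05 and 0.000481). Klf4 fell by 2.82 ± 0.54 against WT (adjusted p = 0.00616), and Klf10 by 2.02 ± 0.41 against InvEE (adjusted p = 0.0132). Gadd45g, a stress-induced growth inhibitor, fell by 1.53 ± 0.23 and Rhob, a small GTPase, by 1.35 ± 0.29 against WT. Against InvEE Rhob fell by 1.35 ± 0.29 too, and Socs3, the feedback inhibitor of cytokine signalling, by 2.08 ± 0.48 (its remaining probe sets gave -1.38 and -1.44 and did not pass). Ccn2, a matricellular target of TGF-beta and YAP signalling, rose by 2.66 ± 0.34 against WT and by 1.52 ± 0.34 against InvEE. Probe sets not used for these counts were called lower for Ccn1 against WT (-1.36 and -1.40) and InvEE (-1.38 and -1.41). Another of Ccn1 gave 0.71 and 0.24 and was not called. Against WT, others were called lower for Btg1 (-0.93), Mcl1 (-0.70 and -0.68) and Klf4 (-2.33), and against InvEE for Btg1 (-1.23) and Klf4 (-1.96).

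Of 6 early genes often used as signs of dissociation, Zfp36 was called in both Pap comparisons and Egr1 in 1. Egr1, the zinc finger factor usually induced together with Fos, differed by -0.52 ± 0.24 between Pap and WT (adjusted p = 0.225) and fell by 0.93 ± 0.24 against InvEE (adjusted p = 0.0404, lost when array medians were aligned or arrays shifted by ribosomal protein genes). Dusp1, a MAP kinase phosphatase, differed by -0.53 ± 0.23 and -0.30 ± 0.23 in the same comparisons, and Btg2, a growth suppressor, by -0.40 ± 0.31 and -0.37 ± 0.31, none of them called. Ier2, a small nuclear early gene product, stood at -1.12 ± 0.39 and -1.21 ± 0.39 (adjusted p = 0.0977 and 0.082), and Nr4a1, an orphan nuclear receptor, at 0.29 ± 0.57 and -1.18 ± 0.57. Zfp36, which triggers decay of short-lived RNAs, fell by 0.82 ± 0.23 against WT and by 0.85 ± 0.23 against InvEE (adjusted p = 0.039 and 0.0434), calls that were lost under each of the 3 other scalings.

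Heat shock genes, another dissociation response, had 0 called of 13 in every comparison by limma on the probe sets used. Of all genes, 9.65%, 6.71% and 0.533% were called in Pap against WT, Pap against InvEE and InvEE against WT. In the same order, 0, 7 and 4 heat shock genes had an unadjusted p under 0.05. Other probe sets of Hsp90aa1 (-1.32, adjusted p = 0.0261), Hspa8 (-1.86, adjusted p = 0.031) and Dnajb1 (-1.85, adjusted p = 0.0383) were called lower in Pap against InvEE. Another of Dnaja1 was called higher in Pap against WT (1.15, adjusted p = 0.0331), and the rest were not called. The median of the 13 genes was 0.05 in Pap against WT, -0.77 in Pap against InvEE and 0.87 in InvEE against WT. All 13 were lower in Pap than in InvEE by value. Hspa1a, an inducible HSP70, differed by -0.63 ± 0.61 between Pap and WT and by -1.66 ± 0.61 between Pap and InvEE (adjusted p = 0.611 and 0.117). Hspb1, a small heat shock protein, differed by -0.31 ± 0.71 and -1.84 ± 0.71 (adjusted p = 0.86 and 0.13).

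The mean level of the 31 early genes was 9.87 ± 0.17 (SD, n = 4) in Pap, 10.63 ± 0.42 in InvEE and 10.07 ± 0.48 in WT arrays. It ranged from 9.63 to 10.01 in Pap arrays and from 9.46 to 10.62 in WT arrays, so the Pap range lay inside that of WT, and InvEE array 3 (10.00) also fell into the Pap range. Fos was lower in every Pap array than in InvEE array 3 and WT array 4, the arrays with the lowest early gene means of their groups. The same was so for Jun and Atf3.

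**Figure D3:**
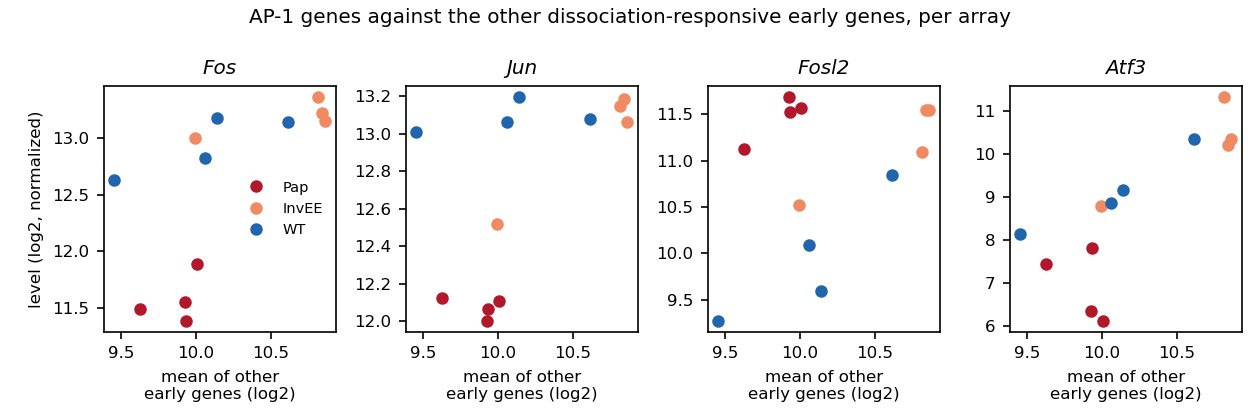
Normalized log2 level of Fos, Jun, Fosl2 and Atf3 (vertical axes) against the mean level of 31 other dissociation-responsive early genes (horizontal axes, log2) in each Pap, InvEE and WT array. Pap arrays span 9.63 to 10.01 on the horizontal axis, inside the WT range of 9.46 to 10.62, and lie below the WT arrays for Fos, Jun and Atf3 and above them for Fosl2.

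With the mean of these early genes as a covariate in the model, all 6 called members remained called in Pap against WT: Fos at -1.29, Fosb at -1.38, Jun at -0.95, Junb at -0.94, Atf3 at -1.87 and Fosl2 at 1.76. The largest adjusted p among them was 0.024, that of Atf3. Genes of this mean were themselves called lower or higher in Pap fibroblasts, so it does not measure dissociation alone. The part of dissociation in the AP-1 values was not tested. In Pap against InvEE, where the mean early gene levels lay further apart, Fos kept its call (-1.30, adjusted p = 0.00739), but Fosb (-1.15, adjusted p = 0.132), Jun (-0.66, adjusted p = 0.117) and Atf3 (-1.96, adjusted p = 0.13) did not, and Fosl2 was called higher (1.20, adjusted p = 0.0289). With the mean of the heat shock genes as a covariate, a setting chosen after seeing the data, 6 members stayed called against WT, and 3 of 4 against InvEE, Fosb being lost (-1.35, adjusted p = 0.059). Poly-A spike controls, which were lower in all InvEE arrays (7.79 to 8.61) than in Pap (9.87 to 12.37) and WT arrays (9.28 to 12.15), separate InvEE from both other groups. With their mean as a covariate Pap against InvEE kept only Fos of its 4 calls (-1.51, adjusted p = 0.0355). Jun at -0.89 (adjusted p = 0.135) and Fosb at -1.50 (adjusted p = 0.222) were nearly as large as without it and lost their calls, and Atf3 stood at -1.52 (adjusted p = 0.423), while Pap against WT had 7 called members, Jund added (-0.49, adjusted p = 0.0498).

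A measure of RNA integrity overlapped between the groups. The difference between 3′ and 5′ control probe sets of Gapdh, which grows as RNA shortens, was 2.73 ± 0.72 (SD, n = 4) in Pap, 2.16 ± 0.77 in InvEE and 1.89 ± 0.30 in WT arrays. It was highest in Pap array 4 (3.79) and InvEE array 3 (3.29). Of the Pap arrays, only array 2 (2.167) was not above the highest WT array (2.325). With it as a covariate 3 members were called in Pap against WT, Fos (-1.35, adjusted p = 0.00281), Jun (-0.86, adjusted p = 0.011) and Fosl2 (1.88, adjusted p = 0.00886). Fosb (-1.19, adjusted p = 0.0511), Junb (-0.82, adjusted p = 0.157) and Atf3 (-1.40, adjusted p = 0.18) did not pass, and all 4 calls of Pap against InvEE remained. Fos was called with each of the 4 covariates in both Pap comparisons.

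**Figure D4:**
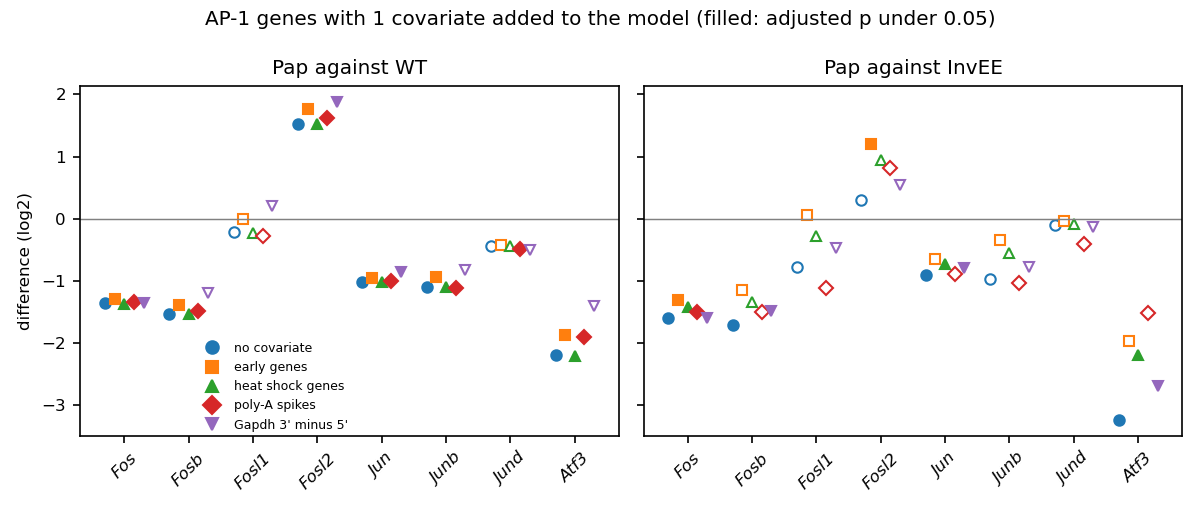
Log2 difference (vertical axis) of the 8 AP-1 genes in Pap against WT and Pap against InvEE fibroblasts without a covariate and with 1 of 4 covariates in the limma model (symbols); filled symbols have an adjusted p under 0.05. Fos is filled throughout, Atf3 against InvEE stands at -3.24 without a covariate and at -1.52 with the spike level, and the 5 values of Jun against WT lie between -1.01 and -0.86.

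Within groups the members rose and fell together in part. Over deviations from group means in 12 arrays, which share their RNA preparation and scaling, Pearson's r was 0.90 between Jun and Junb, 0.81 between Fosb and Atf3, 0.79 between Fosb and Jun and 0.74 between Fosl1 and Fosl2. InvEE array 3 carried much of this: without it these values were 0.39, 0.71, 0.51 and 0.64. Against the mean of the other early genes, r was 0.90 for Fosl2, 0.73 for Junb, 0.71 for Fos and 0.14 for Jund, and without InvEE array 3 it was 0.87, 0.46, 0.69 and -0.11. Among genes above the median level that are not members, the patterns most like those of Fos by the same measure were Fbxo33 (r = 0.93) and Socs3 (r = 0.90). For Fosb they were Tomm34 (0.91) and Gemin7 (0.87), for Fosl1 Cdkn1a (0.94) and Pgf (0.93), for Fosl2 Mex3d (0.96) and Ddit4 (0.93), and for Atf3 Dffa (0.96) and Nrp1 (0.93). Jund was followed by Cchcr1 (0.96) and Fnbp1 (0.91). The closest genes of Jun, Sphk2 (0.95) and Lncpint (0.94), dropped to 0.46 and 0.54 without InvEE array 3, and those of Junb, Fbl (0.95) and Kdsr (0.94), to 0.75 and 0.70.

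Other bZIP factors, which can pair with AP-1 proteins or share their sites, were called in 14.3% of the list in Pap against WT and 10.7% in Pap against InvEE, against 9.65% and 6.71% of all genes. Of 28 measured, 4 fell and 0 rose in Pap against WT (median -0.17): Atf5, a stress-regulated factor (-0.93 ± 0.16), Creb5, a relative of Atf2 (-2.68 ± 0.57), Cebpd, a factor of acute inflammation (-1.24 ± 0.27), and Ddit3, or CHOP, of the unfolded protein response (-0.83 ± 0.19). With arrays shifted by ribosomal protein genes only Creb5 of these 4 stayed called, and the second probe set of Ddit3 (-0.81) was not called. In Pap against InvEE, Jdp2, a Jun-binding repressor, rose by 0.81 ± 0.21 (adjusted p = 0.0425), and Cebpa, a factor of adipogenic differentiation, fell by 3.27 ± 0.49 (adjusted p = 0.00224). Maff, a small Maf protein, fell by 1.82 ± 0.48 (adjusted p = 0.0413, lost when array medians were aligned). In Pap against WT Jdp2 differed by 0.72 ± 0.21 (adjusted p = 0.0525), and its second probe set gave -0.71 there and 0.29 against InvEE, neither called. Batf, a partner of Jun in lymphocytes, differed by 0.10 ± 0.27 between Pap and WT. In Pap against WT, probe sets not used for these counts were called higher for Atf6 (1.12, adjusted p = 0.00584) and lower for Creb5 (-2.47 and -3.42) and Cebpd (-1.20). In Pap against InvEE they were called higher for Atf4 (0.70, adjusted p = 0.0186). They were called lower there for Bach2 (-1.05, adjusted p = 0.0393) and Ddit3 (-1.17, adjusted p = 0.0386). InvEE against WT had 0 calls among these genes by limma, with 10 at an unadjusted p under 0.05 (median 0.04), and Maff stood at 1.85 ± 0.48 there (adjusted p = 0.109).

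Components that activate AP-1 genes moved in both directions. Of 24 measured genes of the MAP kinase cascade and its nuclear targets, 2 rose and 3 fell in Pap against WT (median -0.05). This was 20.8% of the list, against 9.65% of all genes. Both risers act at the Fos promoter: Elk3, an Ets factor that can repress or activate it, rose by 1.95 ± 0.23 (adjusted p = 0.000242), and Srf, serum response factor, by 1.23 ± 0.23 (adjusted p = 0.00483). The second probe set of Srf gave 0.40 and was not called, and the other 3 of Elk3 gave 1.44, 1.69 (both called) and -0.50. Map2k6, an activating kinase of p38, fell by 1.31 ± 0.18 (adjusted p = 0.00081) to a Pap mean of 6.07, below the dim limit. The falls of Map3k5 and Mrtfb (1.60 ± 0.45 and 0.90 ± 0.24) were lost when array medians were aligned or arrays shifted by ribosomal protein genes. In Pap against InvEE, Elk3 rose by 1.04 ± 0.23 and Map2k6 fell by 1.09 ± 0.18, and the call of Map2k6 was lost under the ribosomal shift. These calls were 8.33% of the list, close to the 6.71% of all genes. InvEE against WT had 0 calls by limma and 2 genes at an unadjusted p under 0.05. Other probe sets gave 0.11 for Map3k5 (not called) and -1.52 (called) and 0.42 for Mrtfb in Pap against WT. Map2k1, the mouse gene of MEK1, differed by -0.51 ± 0.20 between Pap and WT and by -0.23 ± 0.20 between InvEE and WT, neither called. Against WT, Srf stood at 1.04 ± 0.23 in InvEE fibroblasts, with an adjusted p of 0.0679.

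Feedback inhibitors of MAP kinase signalling, only some of which ERK activity induces, were called in 9.52% of the list in Pap against WT, close to the 9.65% of all genes. Of 21 genes, Spred2, an inhibitor of Raf activation, rose by 1.03 ± 0.28 in Pap against WT (adjusted p = 0.0373), while its other 4 probe sets gave 0.12 to 0.27 with no call. Errfi1, an inhibitor of the EGF receptor, fell by 1.17 ± 0.33 there (adjusted p = 0.0431), a call that was lost under the 3 other scalings, and its second probe set (-0.89) was not called. Dusp10, a phosphatase of p38 and JNK, fell by 1.41 ± 0.24 in Pap against InvEE (adjusted p = 0.00458; -0.69 on its second probe set, not called). Dusp4, Dusp6, Spry2 and Spry4, common readouts of ERK activity, differed between Pap and WT by 0.91 ± 0.39, 0.32 ± 0.44, 0.47 ± 0.23 and 0.56 ± 0.27, with adjusted p from 0.185 to 0.734. The other 3 probe sets of Spry4 gave 1.28 (adjusted p = 0.00736, called), 1.26 and 1.26 (adjusted p = 0.114 and 0.0758) in this comparison, all higher than the 0.56 of the probe set used. In InvEE against WT 0 of the 21 genes were called by limma on the probe sets used, and 3 had an unadjusted p under 0.05 (median 0.19). Another probe set of Spred1 was called higher there (1.15, adjusted p = 0.0282), and the rest of Spred1 were not called. Other probe sets were also called higher for Rasa1 in Pap against WT (1.11, adjusted p = 0.00729) and for Dusp3 in Pap against InvEE (0.85, adjusted p = 0.0452).

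Among genes that textbooks give as AP-1 targets, more rose than fell in Pap fibroblasts, beside the lower Fos and Jun. Of 30 measured, 11 rose and 4 fell in Pap against WT fibroblasts (median 0.86). This was 50% of the list, against 9.65% of all genes, 4.85% higher and 4.8% lower. In Pap against InvEE 11 rose and 2 fell (median 0.35), 43.3% of the list against 6.71% of all genes. In InvEE against WT limma called 0 of them, and 8 had an unadjusted p under 0.05 (median 0.21). Like the other lists, this one was chosen with earlier results of these data known. Its shares therefore do not test whether such targets changed more often than other genes. The collagenase Mmp13, whose promoter AP-1 binds, stood at 10.37 in Pap, 3.00 in InvEE and 2.78 in WT arrays on average, and rose by 7.59 ± 0.29 against WT and 7.36 ± 0.29 against InvEE. The InvEE and WT means lie below the dim limit, so the size depends on background treatment. Tnc, the matrix protein tenascin C, rose by 6.07 ± 0.53 against WT, Plat, the tissue plasminogen activator, by 2.71 ± 0.26 and Timp1, a metalloproteinase inhibitor, by 3.02 ± 0.30. In Pap against InvEE, Mmp10, another metalloproteinase, rose by 4.20 ± 0.50, with all InvEE arrays below the dim limit, Plat by 2.69 ± 0.26 and Cdkn2a, a cell cycle inhibitor, by 2.21 ± 0.24. The second probe set of Plat gave 1.24 there and was not called (adjusted p = 0.0801).

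Other targets fell or did not pass. Mt1 and Mt2, metallothioneins, fell by 1.69 ± 0.29 and 2.50 ± 0.42 in Pap against WT, Fgf7, a keratinocyte growth factor, by 2.19 ± 0.54 (-1.48 on its second probe set, not called) and the cytokine Lif by 0.77 ± 0.18 (lost under the ribosomal shift). Against InvEE, Fgf7 fell as well (-2.60 ± 0.54), and so did Mt2 (-1.84 ± 0.42). Plau, urokinase, rose by 1.43 ± 0.36 against WT and by 1.99 ± 0.36 against InvEE (0.54 and 1.51 on its second probe set, neither called). Its receptor Plaur rose by 1.37 ± 0.25 against InvEE but differed by 0.39 ± 0.25 from WT (adjusted p = 0.409). Probe sets not used were called lower in Pap against InvEE for Vegfa (-1.20, adjusted p = 0.00837) and Fgf7 (-2.65, adjusted p = 0.0376). They were called higher there for Mmp9, Mmp14, Tnc, Ptgs2, Cd44 and Krt6a. Mmp3 (stromelysin), Il6, Hbegf and Ccnd1 differed between Pap and WT by -0.89 ± 0.48, -0.82 ± 0.93, 0.19 ± 0.43 and 0.39 ± 0.40, none of them called.

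**Figure D5:**
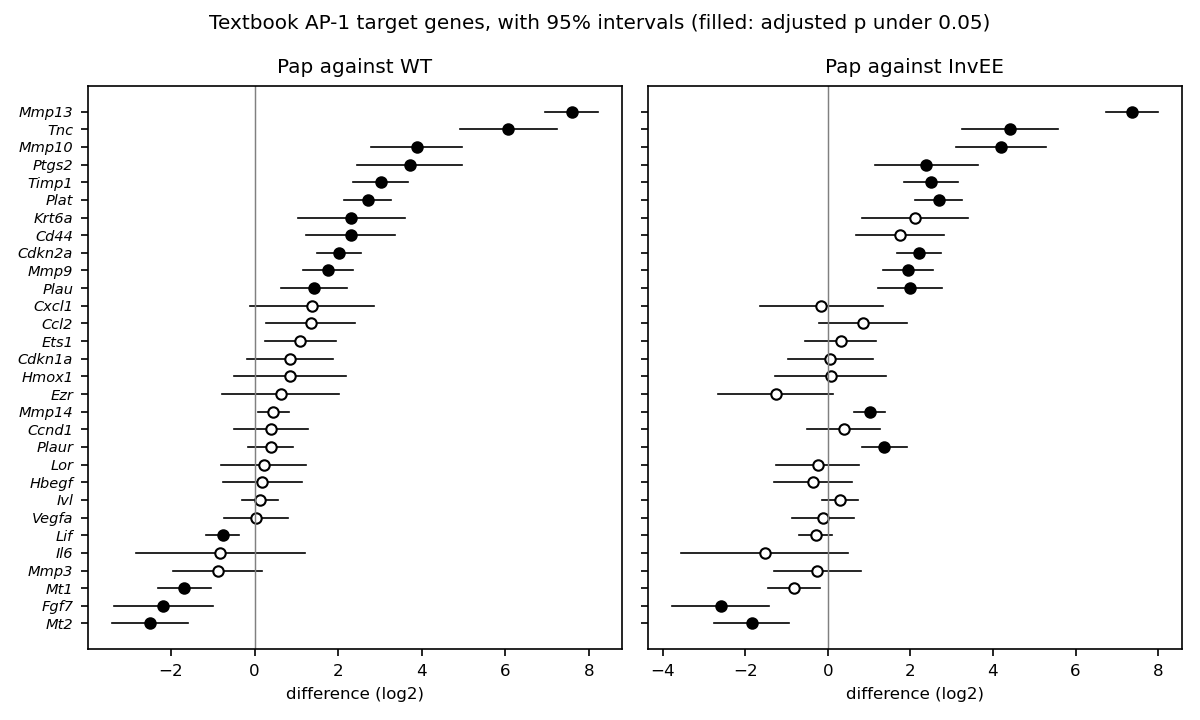
Log2 difference (horizontal axis) of 30 textbook AP-1 target genes in Pap against WT (left) and Pap against InvEE fibroblasts (right), with 95% intervals from limma, ordered by the left panel; filled points have an adjusted p under 0.05. In the left panel 11 filled points lie above 0, from Mmp13 at 7.59 to Plau at 1.43, and 4 below, with Mt2 lowest at -2.50.

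Markers of other skin cells differed between the groups beside these results. Keratinocyte markers, 12 of 12 measured, had mean levels of 6.68 to 8.16 in Pap arrays, 7.67 to 8.97 in InvEE arrays and 6.42 to 6.89 in WT arrays; Cdh1 was dim in all groups. Krt14 and Dsp rose in Pap against WT (2.38 ± 0.58 and 3.11 ± 0.81, the WT mean of Dsp being dim), while their other probe sets were not called there. InvEE arrays were also above all WT arrays for Krt14 (7.83 to 10.33 against 6.37 to 6.95) and Dsp (9.29 to 9.67 against 5.05 to 6.95). These InvEE differences were not called on the probe sets used, but another probe set of Dsp was called higher in InvEE against WT (3.46, adjusted p = 0.0436). Krt15 and Perp rose in InvEE against WT (1.89 ± 0.27 and 3.50 ± 0.68, the WT mean of Perp being dim), where 11 of 12 keratinocyte markers were higher, with a median of 1.44, and Krt15 fell in Pap against InvEE (-2.16 ± 0.27). Pericyte markers (6 of 6) ranged from 7.17 to 7.93 in Pap, 7.66 to 8.04 in InvEE and 8.54 to 8.59 in WT arrays. Kcnj8 fell in all 3 comparisons (-4.01 ± 0.27 in Pap against WT, -2.14 ± 0.27 in Pap against InvEE and -1.86 ± 0.27 in InvEE against WT). Abcc9 fell in Pap against WT (-2.12 ± 0.58) and Cspg4 in Pap against InvEE (-1.34 ± 0.34). Macrophage and myeloid markers (11 of 11) ranged from 6.54 to 6.95, 6.40 to 6.89 and 6.77 to 7.07 in Pap, InvEE and WT arrays, with Ptprc, Adgre1 and Itgam dim in every group. Csf1r fell in Pap against WT (-2.14 ± 0.45), while its other probe sets gave -1.50 and -0.48 and were not called. S100a9 rose in Pap against WT (1.11 ± 0.24) and InvEE (1.02 ± 0.24), where its mean was dim. Endothelial markers (6 of 6) ranged from 5.68 to 6.59, 5.65 to 6.44 and 5.51 to 5.96, with Kdr, Tek and Emcn dim, and T cell markers (5 of 7) lay between 6.14 and 6.51 in all arrays. Of the fibroblast markers, Pdgfra rose in Pap against WT (0.93 ± 0.25) and Pdgfrb in Pap against InvEE (0.55 ± 0.12). Other probe sets gave 1.09 and 1.75 for Pdgfra, not called, and 1.06 for Pdgfrb, called, in the same comparisons. The part of other skin cells in the AP-1 values was not tested.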

How the data were processed

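The authors deposited 1 table with 1 value per probe set for each of 12 Affymetrix arrays, taken as log2 values from their range (2.08 to 14.955); how intensities became these values is not given in the sources used here. Per the submitters' processing notes limma was used. Per the labels' protocols RNA was amplified in 1 round and labelled by in vitro transcription. Quartiles differed between arrays by 0.284 and 0.276, over the limit of 0.1 set for it, so the values were quantile-normalized over all 45101 probe sets. Control probe sets (64) were then left out, and each of 18193 genes was read from its probe set with the highest mean. limma 3.58.1 (R 4.3.3) then fitted a mean per group over the 12 arrays, with eBayes and two-sided tests; the code was checked on simulated data. Other probe sets were tested in a fit of all probe sets. The number of arrays limits the precision; no detection calls were used.

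The members and all lists were chosen with earlier results of these data known. Lists held 209 further genes, 195 of them measured: other bZIP factors, the MAP kinase cascade, its feedback inhibitors, textbook AP-1 targets, dissociation-responsive early and heat shock genes, and markers of fibroblasts, keratinocytes, myeloid cells, T cells, endothelium and pericytes. The text names all members, a fixed set per list, per list and comparison the 4 called genes of smallest p in each direction, and per member the 2 genes of highest r. Alternatives were other scalings, probe set rules, a filter on dim genes, the replicate number as a block, other variance models, 4 covariates (the heat shock one chosen after seeing the data) and leaving out each array.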

Additional observations from a re-analysis of the deposited data

How the results depend on the processing

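Of 624 recomputed member differences (24 differences under 26 settings), 575 kept their direction and their side of the threshold, 28 kept their direction and lost their call, 6 gained a call and 15 changed sign; the cause of the moves was not tested. Fos kept its call in both Pap comparisons throughout (-1.47 to -1.09 against WT, -1.71 to -1.14 against InvEE), and Jun against WT as well (-1.04 to -0.74).

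The sign changed only in differences that were not called. With arrays shifted by 42 ribosomal protein genes, Fosb in InvEE against WT was -0.0075, Fosl1 in Pap against WT 0.049 and Jund in Pap against InvEE 0.37. With the mean of all probe sets, Jun in InvEE against WT was 0.14 and Fosl1 in Pap against WT 0.15. Covariates gave in InvEE against WT -0.38 (spikes) and -0.0051 (heat shock genes) for Atf3, -0.23 (early genes) and -0.18 (heat shock genes) for Fosb, and -0.072 (early genes) for Fosl1; they gave 0.21 for Fosl1 in Pap against WT (Gapdh) and 0.067 for Fosl1 in Pap against InvEE (early genes). Leaving out 1 array gave -0.18 to 0.044 for Jun (0.044 without InvEE array 3) and -0.31 to 0.20 for Junb (0.20 without InvEE array 3) in InvEE against WT, and -0.18 to 0.020 for Jund in Pap against InvEE (0.020 without Pap array 2).

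Called members numbered 1 (spike covariate) and 2 (early gene covariate) in place of 4 in Pap against InvEE (with the spikes, Jun at -0.89 and Fosb at -1.50 stayed nearly as large), and 3 (Gapdh covariate) in place of 6 in Pap against WT. In InvEE against WT they ranged from 0 to 1 over arrays left out, with 1 (Fosl2) without WT array 3. Over all genes, the 97 calls of InvEE against WT became 62 without normalization, 60 with medians aligned, 228 with the mean of all probe sets, 57 with the replicate block, 4 without moderation, 157 with the Gapdh covariate, 2 with the early gene covariate, and 0 with the spike and heat shock covariates (2170 and 1786 at an unadjusted p under 0.05). The 1756 calls of Pap against WT became 1094 with only both groups' arrays and 1138 with the Gapdh covariate. The 1221 calls of Pap against InvEE became 6846 with the ribosomal shift, 215 with the spike, 465 with the early gene and 642 with the heat shock covariate. Leaving out 1 array gave 0 to 249 calls in InvEE against WT (0 without InvEE array 1, with 2222 at an unadjusted p under 0.05, and 249 without Pap array 4), 1259 to 1792 in Pap against WT and 578 to 1581 in Pap against InvEE (578 without InvEE array 1).

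The ribosomal shift moved all differences by 0.27 in Pap against WT, -0.19 in InvEE against WT and 0.46 in Pap against InvEE. It changed the share of called genes that were higher to 75.3%, 25.2% and 94.9%, against 50.3%, 48.5% and 54.7% as reported; aligned medians gave 66.8% in Pap against InvEE. Replicate numbers are shared by the groups. Same-numbered arrays correlated by -0.09 to 0.18 in their deviations, and other pairs from different groups by -0.17 to 0.17. Spike means had the same order over replicate numbers 1 to 4 in Pap (11.02, 10.65, 9.87 and 12.37) and WT arrays (10.28, 10.25, 9.28 and 12.15). InvEE arrays had another order (8.61, 8.13, 8.05 and 7.79). Whether same-numbered arrays shared a batch was not tested. With the replicate block Junb (adjusted p = 0.0579) and Atf3 (adjusted p = 0.0736) were not called in Pap against WT, nor without moderation (0.0664 and 0.0854).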
